A study of Homo sapiens with 8 samples.

Results

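Leukocyte integrins and the adhesion molecules CD44 and PECAM1 were followed across cells carrying an shRNA against BTG1 or a control shRNA. The set holds 9 genes chosen by name (ITGA4, ITGA5, ITGA6, ITGAL, ITGB1, ITGB2, ITGB7, CD44 and PECAM1), and 9 of 9 had a row among the 17881 transcript clusters of the array. Where 2 rows carried a symbol, as for ITGA4 and ITGB1, the row with the higher mean over the 8 arrays was taken. The row of ITGA4 is annotated to CERKL as well, so its signal cannot be divided between these genes. The study measured total RNA on exon arrays of cells labelled RS4;11, an established line of B-cell precursor acute lymphoblastic leukemia with an MLL fusion. There were 4 groups of 2 arrays: BTG1 shRNA with prednisolone, BTG1 shRNA with vehicle, control shRNA vector with prednisolone, and control shRNA vector with vehicle. Each exposure lasted 8 h, and the concentration of prednisolone, a synthetic glucocorticoid, is not given in the sources used here. All groups were transduced cells, and the labels do not say whether these were clones or pools, or whether cultures were separate for each array. What the p-values measure is thus array-to-array spread within groups, part or all of which may be technical.

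Integrins are cell surface receptors made of an alpha and a beta subunit, which link the cytoskeleton to matrix or to ligands on other cells. In lymphoid cells the ITGAL and ITGB2 products pair to a receptor for ICAM proteins. The ITGA4 product pairs with that of ITGB1 to bind VCAM1 and fibronectin in bone marrow, or with that of ITGB7 to bind the gut addressin MADCAM1. The ITGA5 and ITGA6 products pair with that of ITGB1 to bind fibronectin and laminin. CD44 binds hyaluronan and PECAM1 binds itself on neighbouring cells. Prednisolone and other glucocorticoids act through the receptor encoded by NR3C1.

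RefSeq promoter windows (GRCh38.p14, 300 bases around a transcription start) were at hand for 6 of the 9 genes, and not for ITGAL, ITGB2 and PECAM1. The windows of CD44 and ITGA4 are shown because these genes stood furthest apart, in opposite directions, among the 6. That of ITGA5 is shown as an example with a motif match. ITGA5 comes back below among the genes with lower values under prednisolone in control cells, as does ITGB7, whose window is not shown. The windows shown lie at chr11:35138921-35139220 (plus strand), chr2:181457136-181457435 (plus strand) and chr12:54419217-54419516 (minus strand). Capitals mark a match to TGTGGT (RUNX core), GAGGAA (an ETS core of the PU.1 type), TGAGTCA (AP-1) or the glucocorticoid receptor palindrome, searched on both strands.
CD44: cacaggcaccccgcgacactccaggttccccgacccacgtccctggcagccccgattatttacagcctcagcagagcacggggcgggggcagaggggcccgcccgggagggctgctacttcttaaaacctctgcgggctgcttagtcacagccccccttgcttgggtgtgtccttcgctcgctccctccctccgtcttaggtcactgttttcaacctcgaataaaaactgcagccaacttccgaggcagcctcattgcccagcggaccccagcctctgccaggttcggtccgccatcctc
ITGA4: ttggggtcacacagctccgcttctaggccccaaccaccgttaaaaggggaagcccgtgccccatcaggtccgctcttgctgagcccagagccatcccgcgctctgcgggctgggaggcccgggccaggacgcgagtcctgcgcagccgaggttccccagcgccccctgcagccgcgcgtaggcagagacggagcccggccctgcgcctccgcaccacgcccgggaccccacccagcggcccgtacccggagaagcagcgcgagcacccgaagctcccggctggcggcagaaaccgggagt
ITGA5: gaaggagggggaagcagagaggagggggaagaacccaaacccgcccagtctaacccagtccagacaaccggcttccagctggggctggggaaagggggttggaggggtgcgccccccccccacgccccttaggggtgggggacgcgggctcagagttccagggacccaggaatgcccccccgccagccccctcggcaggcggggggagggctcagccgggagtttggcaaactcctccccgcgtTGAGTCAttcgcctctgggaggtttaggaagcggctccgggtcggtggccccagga
The ITGA5 window holds 1 AP-1 match, at position 245 of 300 from its 5′ end, and the CD44 and ITGA4 windows hold 0 matches to any of the 4 motifs. Over all 35116 windows, 4.95% hold the AP-1 letters, 13.1% the RUNX core, 27.9% the ETS core and 0.00285% the palindrome. Among the windows not shown, 1 of ITGB1 holds the ETS core and that of ITGB7 holds 2 ETS matches. Both windows of ITGA6 hold the RUNX core, but these windows overlap and the match is the same site. A match is a description of the letters only.

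The labels were checked before the genes were compared. The cluster of BTG1 and LINC01619 read 8.14 and 7.80 (prednisolone) and 7.15 and 7.42 (vehicle) on the arrays labelled BTG1 shRNA, against 10.51 and 10.70 (prednisolone) and 9.34 and 9.36 (vehicle) on the control arrays, in log2 units. The arrays labelled BTG1 shRNA went against the B-lineage label of the cell line. Of 12 measured T-lineage markers 11 were higher there and 0 lower under either treatment. The T-lineage linear signals summed to 10100 to 12000 (prednisolone) and 12300 to 12400 (vehicle) on the arrays labelled BTG1 shRNA, against 493 to 585 and 709 to 962 on the control arrays. Of 11 measured B-lineage markers 8 were lower under prednisolone and 9 under vehicle, with sums of 601 to 659 and 582 to 587 on the arrays labelled BTG1 shRNA, against 5140 to 5510 and 6030 to 7030 on the control arrays. The defining T-lineage gene CD3D read 10.97 to 11.49 on the arrays labelled BTG1 shRNA and 3.24 to 3.42 on the control arrays, and the defining B-lineage gene PAX5 read 4.06 to 4.52 and 9.34 to 10.16. No marker was listed at 0 on any array, which does not show that each was detected, as the arrays have no detection call. Of the markers of other cells, 0 of 6 myeloid, 1 of 4 erythroid and platelet, and 0 of 6 stromal and endothelial genes were called under prednisolone, and 1, 1 and 0 under vehicle, all of them lower. The erythroid and platelet signals summed to 102 to 157 (prednisolone) and 83.8 to 113 (vehicle) on the arrays labelled BTG1 shRNA, against 315 to 360 and 178 to 306 on the control arrays, and their part in the results was not tested. For the adhesion genes, an shRNA effect and this difference in lineage profile cannot be told apart in any comparison of these arrays with the control arrays. In RNA of whole cultures, fewer cells of a type and less RNA per cell cannot be told apart either. The interquartile range of log2 values was 2.95 on control vehicle array 1 and 3.39 to 3.80 on the other 7 arrays.

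Most of the adhesion genes differed between the arrays labelled BTG1 shRNA and the control arrays, and in both directions. Under vehicle 5 of the 9 were higher (ITGA4, ITGA6, ITGAL, ITGB2 and PECAM1), 2 were lower (ITGA5 and CD44) and 2 did not pass the test (ITGB1 and ITGB7). Under prednisolone the first 5 were again higher and CD44 again lower, and ITGA5 joined ITGB1 and ITGB7 in not passing. The test was limma's moderated statistic on all 8 arrays, with Benjamini-Hochberg adjustment over all 17881 clusters and a threshold of 0.05. Both arrays labelled BTG1 shRNA lay above both control arrays for 6 of the 9 genes under either treatment, against 28.4% of clusters under prednisolone and 24.5% under vehicle, and below them for 2, against 21.5% and 34.3%. Over all clusters 14.7% were called under vehicle (8.46% higher and 6.21% lower) and 17.5% under prednisolone (10.0% higher and 7.51% lower). The median difference of the 9 genes was 0.88 under vehicle and 1.09 under prednisolone, beside -0.15 and 0.04 over all clusters. All differences are on the log2 scale, labelled BTG1 shRNA minus control shRNA. Without the first or the second vehicle array labelled BTG1 shRNA the count under vehicle was 4 in place of 7, and 3 calls (ITGA5, ITGAL and CD44) held without any 1 of the 8 arrays. Under prednisolone 6 of 6 calls held without any 1 array.

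**Figure D1:**
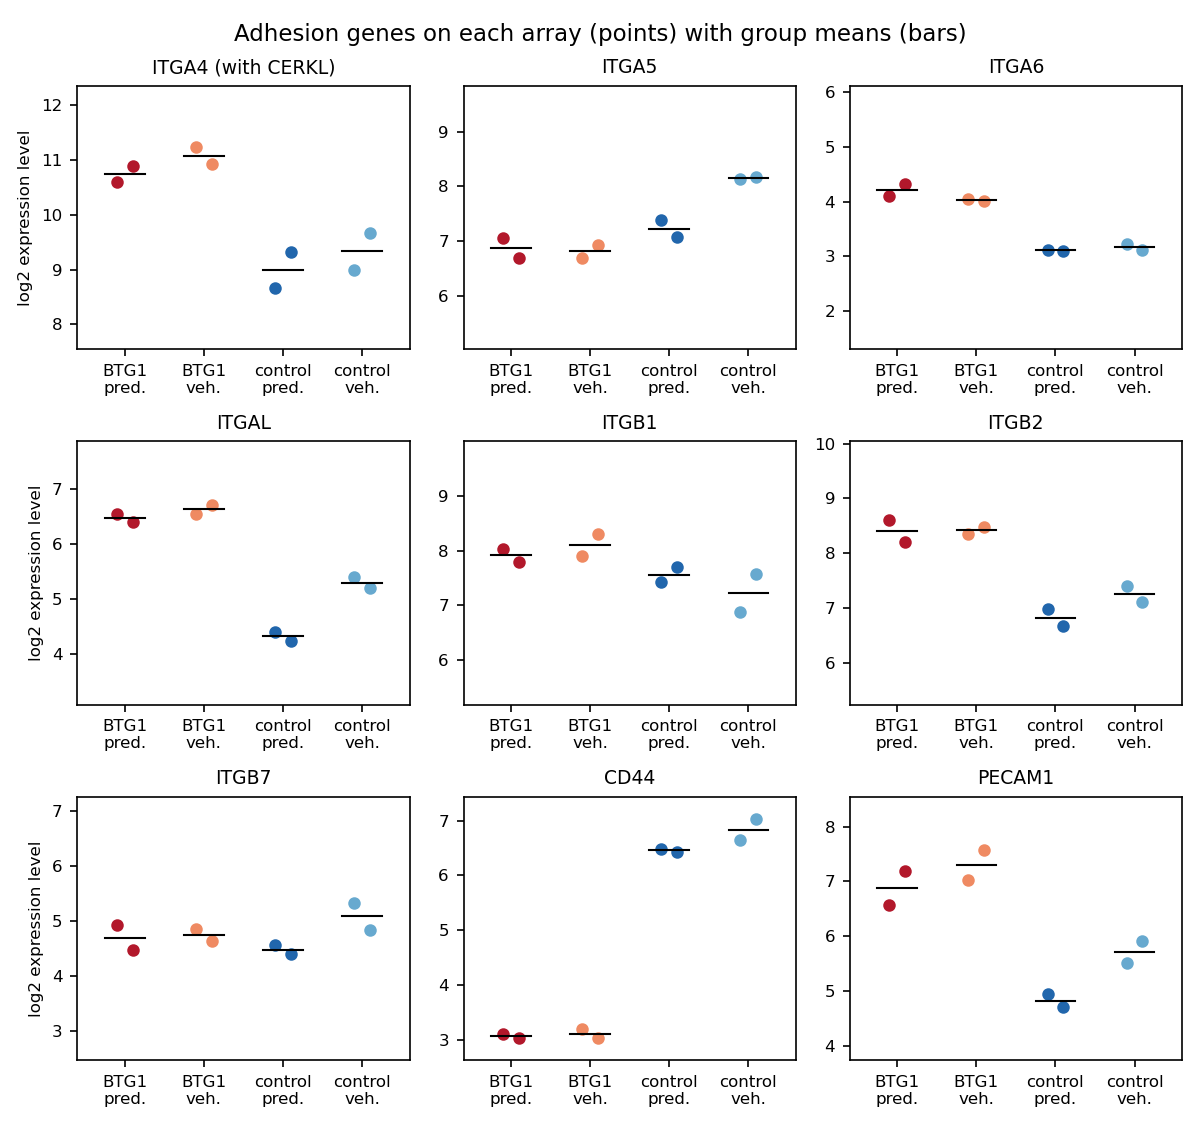
Log2 expression level of the 9 adhesion genes (vertical axis, each panel spanning the same number of units) on every array, by group along the horizontal axis. Points are the 2 arrays of a group and bars their mean; ITGAL, ITGB2, ITGA4, ITGA6 and PECAM1 sit higher on the arrays labelled BTG1 shRNA (left) than on the control arrays (right), and CD44 lower.

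ITGAL, the alpha subunit of the ICAM receptor, read 6.54 and 6.39 with prednisolone and 6.55 and 6.71 with vehicle on the arrays labelled BTG1 shRNA. On the control arrays it read 4.40 and 4.23 with prednisolone and 5.39 and 5.19 with vehicle. The 4 arrays labelled BTG1 shRNA lay above all 4 control arrays, and among the control arrays both prednisolone arrays lay below both vehicle arrays. Under prednisolone ITGAL was higher by 2.15 (SE 0.18, 4.45-fold, limma adjusted p = 0.000182). With vehicle the excess was 1.34 (SE 0.18, 2.53-fold, limma adjusted p = 0.00207). The control prednisolone values lay at percentiles 37.3 and 36.9 of their arrays. Their level above background is unknown, so the size of any ITGAL difference that involves them is uncertain.

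ITGB2, its beta subunit, read 8.61 and 8.20 with prednisolone and 8.35 and 8.49 with vehicle on the arrays labelled BTG1 shRNA, against 6.98 and 6.67 with prednisolone and 7.41 and 7.11 with vehicle on the control arrays. Again the 4 arrays labelled BTG1 shRNA lay above all 4 control arrays. ITGB2 was higher by 1.58 (SE 0.22, 2.99-fold, limma adjusted p = 0.00231) with prednisolone and by 1.15 (SE 0.22, 2.23-fold, adjusted p = 0.012) under vehicle. The vehicle call was lost without either vehicle array labelled BTG1 shRNA (adjusted p = 0.0619 and 0.1) and after quantile normalization (0.95, adjusted p = 0.0693). Both subunits of this receptor were thus higher under both treatments.

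ITGA4 was among the brighter clusters on every array, at percentiles 99.2 to 99.6 of the arrays labelled BTG1 shRNA and 92.0 to 96.9 of the control arrays. It read 10.60 and 10.89 with prednisolone and 11.24 and 10.92 with vehicle on the arrays labelled BTG1 shRNA, against 8.66 and 9.32 with prednisolone and 8.99 and 9.67 with vehicle on the control arrays. The groups did not overlap, although the 2 control arrays of each treatment lay further apart than those labelled BTG1 shRNA. ITGA4 was higher by 1.76 (SE 0.31, 3.38-fold, limma adjusted p = 0.00671) with prednisolone and by 1.75 (SE 0.31, 3.35-fold, adjusted p = 0.00825) under vehicle. The vehicle call ended without the first vehicle array labelled BTG1 shRNA (adjusted p = 0.0642). A second, dim row annotated to CERKL and ITGA4, with a mean of 3.37 over the 8 arrays, differed by 0.14 (adjusted p = 0.866) under prednisolone and by -0.07 (adjusted p = 0.8) under vehicle.

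The beta subunits that pair with ITGA4 did not pass the test under either treatment. ITGB1 read 8.03 and 7.80 with prednisolone and 7.91 and 8.30 with vehicle on the arrays labelled BTG1 shRNA, against 7.43 and 7.70 with prednisolone and 6.88 and 7.57 with vehicle on the control arrays. The arrays labelled BTG1 shRNA lay above the control arrays of the same treatment, by a narrow margin. The difference was 0.35 (95% interval -0.29 to 0.99, limma adjusted p = 0.569) under prednisolone and 0.88 (0.24 to 1.52, adjusted p = 0.0778) under vehicle, and the vehicle difference passed once control vehicle array 2 was omitted (1.23, adjusted p = 0.0179).

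ITGB7 lay below the median cluster on every array, at percentiles 39.4 to 48.1. It read 4.92 and 4.48 with prednisolone and 4.85 and 4.64 with vehicle on the arrays labelled BTG1 shRNA, against 4.56 and 4.39 with prednisolone and 5.34 and 4.83 with vehicle on the control arrays. The groups overlapped under both treatments. The difference was 0.22 (95% interval -0.35 to 0.79, limma adjusted p = 0.772) under prednisolone and -0.34 (-0.91 to 0.23, adjusted p = 0.364) under vehicle.

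The alpha subunits that pair with ITGB1 to bind matrix stood on opposite sides. ITGA5, of the fibronectin receptor, read 7.06 and 6.70 with prednisolone and 6.70 and 6.94 with vehicle on the arrays labelled BTG1 shRNA, against 7.38 and 7.07 with prednisolone and 8.13 and 8.16 with vehicle on the control arrays. The control vehicle arrays stood above the other 6. ITGA5 was lower by -1.33 (SE 0.21, 2.51-fold, limma adjusted p = 0.00462) with vehicle, and under prednisolone the difference was -0.34 (95% interval -0.83 to 0.14, adjusted p = 0.391).

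ITGA6, of the laminin receptor, read 4.09 and 4.31 with prednisolone and 4.05 and 4.01 with vehicle on the arrays labelled BTG1 shRNA, against 3.12 and 3.11 with prednisolone and 3.22 and 3.11 with vehicle on the control arrays. It was higher by 1.09 (SE 0.17, limma adjusted p = 0.00361) under prednisolone and by 0.87 (SE 0.17, adjusted p = 0.0126) under vehicle. It was dim throughout, at percentiles 30.8 to 37.3 of the arrays labelled BTG1 shRNA and 10.7 to 15.7 of the control arrays, which leaves the level over background unknown, and its fold is left out. The ITGA6 vehicle call ended when either vehicle array of the BTG1 shRNA label was omitted (adjusted p = 0.1 and 0.0983) and with only the arrays compared in the fit (adjusted p = 0.0676).

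CD44, the hyaluronan receptor, showed the widest gap of the 9 genes. It read 3.11 and 3.04 with prednisolone and 3.19 and 3.03 with vehicle on the arrays labelled BTG1 shRNA, against 6.48 and 6.43 with prednisolone and 6.64 and 7.03 with vehicle on the control arrays. The values of the arrays labelled BTG1 shRNA lay at percentiles 13 to 16.7 of their arrays, where the level above background is unknown, and the control values at percentiles 65.1 to 73.1. CD44 was lower by -3.38 (SE 0.19, limma adjusted p = 3.33e-05) under prednisolone and by -3.73 (SE 0.19, adjusted p = 2.39e-05) under vehicle, and the size of these differences is uncertain for the same reason.

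PECAM1, the adhesion molecule that binds itself, read 6.57 and 7.18 with prednisolone and 7.02 and 7.58 with vehicle on the arrays labelled BTG1 shRNA, against 4.94 and 4.70 with prednisolone and 5.51 and 5.91 with vehicle on the control arrays. The 4 arrays labelled BTG1 shRNA lay above all control arrays, and within the control shRNA the prednisolone arrays lay below the vehicle arrays. PECAM1 was higher by 2.05 (SE 0.29, 4.15-fold, limma adjusted p = 0.00238) under prednisolone and by 1.59 (SE 0.29, 3.01-fold, adjusted p = 0.00943) under vehicle. The vehicle call ended without the second vehicle array labelled BTG1 shRNA (1.31, adjusted p = 0.0822).

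**Figure D2:**
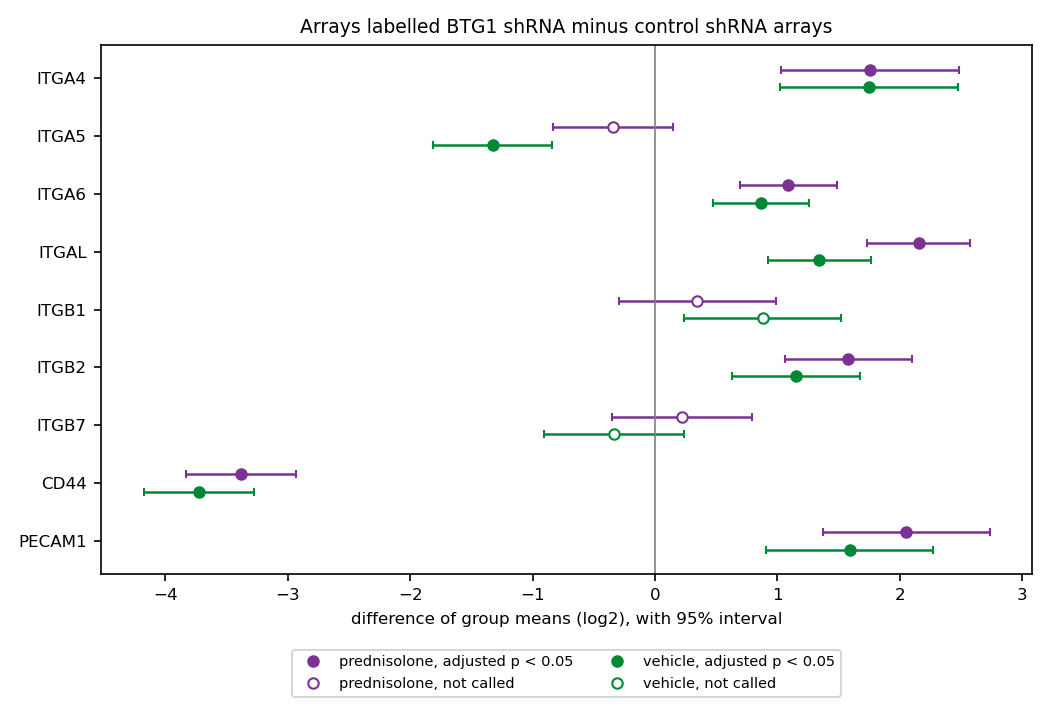
Difference between arrays labelled BTG1 shRNA and control shRNA arrays (horizontal axis, log2) for each adhesion gene, under prednisolone (upper point) and vehicle (lower point). Bars are 95% intervals of limma and filled points have an adjusted p below 0.05; CD44 stands alone near -3.4 and -3.7 while the 5 genes called higher under both treatments lie above 0, as does ITGB1, which was not called.

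The question of the series, how cells with less BTG1 respond to prednisolone, was then put to these genes. NR3C1, the receptor gene, read 7.25 and 7.25 with prednisolone and 7.77 and 7.12 with vehicle on the arrays labelled BTG1 shRNA, against 10.63 and 10.90 with prednisolone and 9.72 and 10.24 with vehicle on the control arrays. All 4 arrays labelled BTG1 shRNA lay below all 4 control arrays, and the part of this in the results that follow was not tested. In control shRNA cells 0 of the 9 passed the test with prednisolone, although 8 of the 9 differences were negative and 4 had an unadjusted limma p below 0.05. Over all clusters 1.52% were called (0.928% higher and 0.587% lower), and 2526 had an unadjusted p below 0.05. For 6 of the 9 genes both prednisolone arrays lay below both vehicle arrays, as did 26.4% of all clusters, and for 0 genes both lay above, as for 15.3% of clusters. The median difference of the 9 was -0.44, beside -0.16 over all clusters, so part of the negative balance is shared with the whole array. A change over 2-fold, the cutoff named in the series' description, was seen for 0 of 9 genes and 5.26% of all clusters.

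ITGAL came nearest to the threshold with prednisolone in control cells, at -0.98 (95% interval -1.40 to -0.56, limma adjusted p = 0.0516). It passed after quantile normalization (-0.868, adjusted p = 0.031) and when control vehicle array 2 was omitted (-1.075). With the replicate number as a block in the fit, ITGAL and ITGA5 passed (limma adjusted p = 0.0254 and 0.0498). Whether the numbers pair the arrays is not settled. The values that follow are from the fit without a block. ITGA5 stood at -0.92 (-1.41 to -0.43, adjusted p = 0.0983), PECAM1 at -0.89 (-1.57 to -0.20, adjusted p = 0.24) and ITGB7 at -0.61 (-1.18 to -0.04, adjusted p = 0.331). In each of these 4 genes the prednisolone arrays lay below the vehicle arrays, as the values above show. ITGB2 at -0.44 (-0.96 to 0.09, adjusted p = 0.42) and CD44 at -0.38 (-0.83 to 0.07, adjusted p = 0.419) had the same order of arrays with intervals that include 0.

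The integrin subunits ITGA4, ITGA6 and ITGB1 had overlapping arrays in that comparison. ITGA4 stood at -0.34 (95% interval -1.07 to 0.39), ITGA6 at -0.05 (-0.45 to 0.34) and ITGB1, the only one of the 9 with a positive difference, at 0.34 (-0.30 to 0.98). Without the first control vehicle array the ITGB1 difference was -0.009, and the ITGA6 difference turned positive after quantile normalization (0.11) or centring (0.075).

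On the arrays labelled BTG1 shRNA 0 of the 9 genes passed with prednisolone, and 0 had an unadjusted limma p below 0.05. Over all clusters 0% were called, and 186 had an unadjusted p below 0.05. The differences ran from -0.43 for PECAM1 (95% interval -1.11 to 0.26) to 0.17 for ITGA6 (-0.22 to 0.57), with a median of -0.05 beside 0.04 over all clusters. ITGAL stood at -0.17 (-0.59 to 0.26) and ITGA5 at 0.06 (-0.43 to 0.55). Both prednisolone arrays lay below both vehicle arrays for ITGA4 and ITGAL, against 10.5% of all clusters, and above them for ITGA6, against 18.0%. By over 2-fold 0 of 9 differed, against 0.213% of all clusters.

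**Figure D3:**
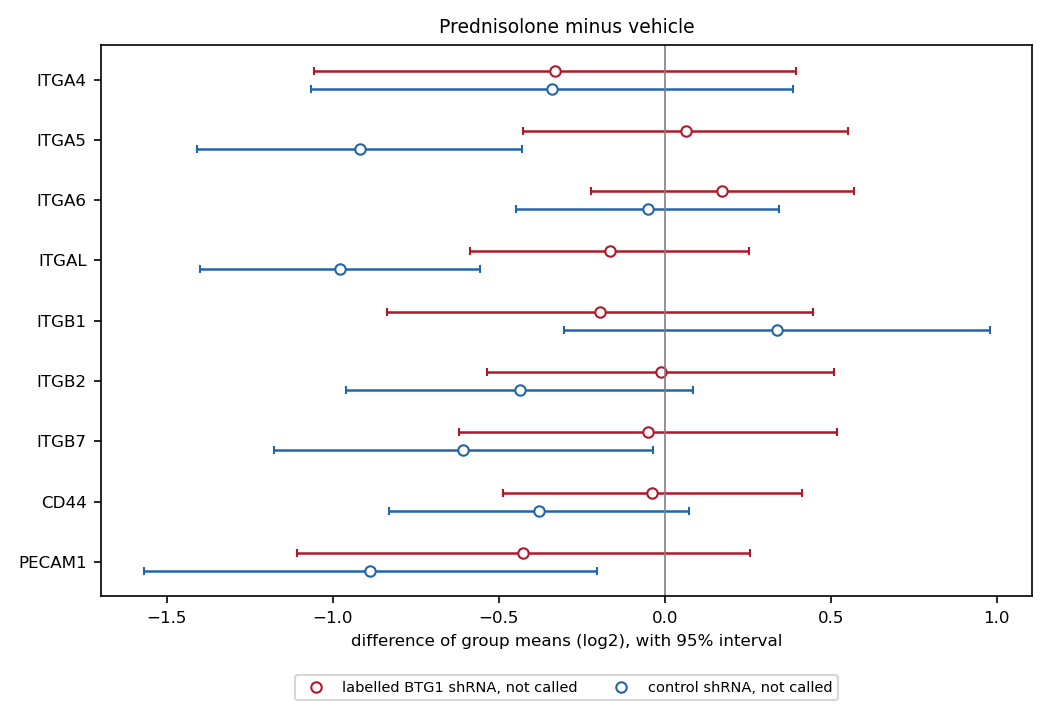
Prednisolone minus vehicle (horizontal axis, log2) for each adhesion gene on arrays labelled BTG1 shRNA (upper point) and on control shRNA arrays (lower point), with 95% intervals of limma. Open points have an adjusted p above 0.05, which holds for all 18 differences; the intervals of ITGA5, ITGAL, ITGB7 and PECAM1 lie below 0 on the control arrays.

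The difference between the 2 prednisolone effects, labelled BTG1 shRNA minus control shRNA, was tested directly and 0 of the 9 genes passed with limma, while 2 had an unadjusted p below 0.05. Over all clusters 0.134% were called (0.0280% higher and 0.106% lower) and 1664 had an unadjusted p below 0.05. ITGA5 had the largest value at 0.98 (95% interval 0.29 to 1.67, adjusted p = 0.415), followed by ITGAL at 0.81 (0.22 to 1.41, adjusted p = 0.443). The other 7 ran from -0.53 for ITGB1 (-1.44 to 0.38) to 0.56 for ITGB7 (-0.25 to 1.36), with 0.01 for ITGA4 (-1.02 to 1.04). The median was 0.43, beside 0.20 over all clusters. For these genes a different response under the 2 shRNAs was neither called nor bounded tightly by 2 arrays a group.

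Some ligands and counter-receptors differed between the arrays labelled BTG1 shRNA and the control arrays, and others did not pass. Of 11 measured counter-receptors and selectins 5 were higher and 1 lower under prednisolone (median 0.61, beside 0.04 over all clusters), and 3 and 1 under vehicle (median -0.03, beside -0.15). The shares of all clusters called were 17.5% and 14.7%. ICAM1, VCAM1 and MADCAM1, ligands named here after their values were seen, did not pass under either treatment. Their differences were 0.61, -0.001 and -0.01 under prednisolone and -0.03, -0.19 and -0.59 under vehicle. VCAM1 was dim on every array (2.521 to 2.790), so its level over background is unknown. ICAM3 was higher by 1.40 (limma adjusted p = 0.00411) under prednisolone and 1.21 (adjusted p = 0.0098) under vehicle. With 1 array left out its vehicle difference ran from 1.001 to 1.425. The ICAM3 call under vehicle was lost without the second vehicle array labelled BTG1 shRNA (1.001). ICAM4, also named after its values were seen, was higher by 1.26 (adjusted p = 0.0303) under prednisolone and did not pass under vehicle (0.27, adjusted p = 0.551). SELPLG, the ligand of selectins, was higher by 4.57 (SE 0.30) under prednisolone and 4.23 (SE 0.30) under vehicle. JAM3, a junctional adhesion molecule, was higher by 3.20 (SE 0.22) and 2.76 (SE 0.22). JAM2 was lower by -1.46 (SE 0.21) and -1.63 (SE 0.21). The control values of SELPLG (3.40 to 4.29) and JAM3 (4.033 to 4.625) were dim. So were the JAM2 values on the arrays labelled BTG1 shRNA (3.32 to 3.65). The level of these values over background is unknown, and the sizes of the 3 differences are uncertain.

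ICAM2, a ligand of the ITGAL and ITGB2 receptor, read 9.64 and 9.56 with prednisolone and 9.35 and 9.62 with vehicle on the arrays labelled BTG1 shRNA, against 7.81 and 7.67 with prednisolone and 9.01 and 9.32 with vehicle on the control arrays. The control prednisolone arrays stood below the other 6. In control cells it fell with prednisolone by 1.43 on the log2 scale (SE 0.19, limma adjusted p = 0.0173), a call lost without the first or second control prednisolone array (adjusted p = 0.0706 and 0.19), after array centring (0.0646) and with only the arrays compared in the fit (0.137). With prednisolone on both sides, the excess of ICAM2 in cells labelled BTG1 shRNA was 1.86 (SE 0.19, limma adjusted p = 0.000524). The difference of its prednisolone effects, 1.54 (SE 0.28), did not pass (adjusted p = 0.119).

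Of the other integrin subunits 18 were measured. Under prednisolone 2 were higher and 2 lower on the arrays labelled BTG1 shRNA (median -0.01, beside 0.04 over all clusters, of which 17.5% were called), and under vehicle 0 and 2 (median -0.30, beside -0.15, with 14.7% called). ITGA9, an alpha subunit that like ITGA4 pairs with ITGB1, read 4.30 and 3.998 with prednisolone and 4.02 and 3.87 with vehicle on the arrays labelled BTG1 shRNA, against 7.57 and 7.66 with prednisolone and 5.35 and 4.88 with vehicle on the control arrays. In control cells ITGA9 rose with prednisolone by 2.496 (SE 0.22, limma adjusted p = 0.00438), a call that held without any 1 of the 8 arrays and was lost with only the arrays compared in the fit (adjusted p = 0.0509). On the arrays labelled BTG1 shRNA the difference with prednisolone was 0.20 (SE 0.22, adjusted p = 1), and the difference of the effects was -2.30 (SE 0.31, adjusted p = 0.066). Under vehicle the 2 lower subunits were ITGB5 at -1.65 (SE 0.19, limma adjusted p = 0.000971) and ITGA9 at -1.17 (SE 0.22, adjusted p = 0.0101). With 1 array left out they ran from -1.82 to -1.484 and from -1.398 to -0.935. The ITGA9 call under vehicle was lost without the first or the second vehicle array labelled BTG1 shRNA (-1.241 and -1.092). Values of ITGA9 and ITGB5 on the arrays labelled BTG1 shRNA, and of ITGB3 on all arrays, were dim, so these sizes are uncertain. Beside ITGA9 at -3.46, the calls under prednisolone were ITGA3, ITGB3 and ITGB5, at 1.54, 0.87 and -0.68. Each of the last 3 was lost without at least 1 array. Without the second control vehicle array 6 of these subunits were lower under vehicle.

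The cytoplasmic genes of integrin activation and cytoskeletal linkage were split between higher and lower. Of 25 measured, 4 were higher and 5 lower on the arrays labelled BTG1 shRNA under prednisolone (median -0.11, beside 0.04 over all clusters, of which 17.5% were called), and again 4 and 5 under vehicle (median -0.11, beside -0.15, with 14.7% called). FYB1, an adaptor that couples antigen receptors to integrins, was higher by 5.51 (SE 0.24) under prednisolone and 5.47 (SE 0.24) under vehicle, and read 2.78 to 3.13 on the control arrays. SKAP2, a binding partner of that adaptor, was lower by -5.09 (SE 0.41) and -3.996 (SE 0.41), and read 2.68 to 3.12 on the arrays labelled BTG1 shRNA. The dim sides of FYB1 and SKAP2 are of unknown level above background. FERMT2, a kindlin, was higher by 2.29 (SE 0.24) and 2.84 (SE 0.24). Its control values (3.44 to 4.10) were also dim, so the sizes are uncertain. RASGRP2, an exchange factor for RAP1 proteins, was lower by -2.11 (SE 0.25) under prednisolone and -2.42 (SE 0.25) under vehicle. The focal adhesion kinase relative PTK2B was lower by -1.58 (SE 0.17) and -1.26 (SE 0.17). Leaving out 1 array moved the number higher to between 2 and 5 under vehicle and between 2 and 4 under prednisolone, and the number lower to between 4 and 6 and between 3 and 6. In control cells PXN, the scaffold paxillin, rose with prednisolone by 1.49 (SE 0.22, limma adjusted p = 0.0225), but the call was lost in 6 of 8 fits with 1 array left out (highest adjusted p = 0.185).

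The ERM proteins link CD44 to actin, and 3 of 3 were measured. Their median difference between the shRNAs was -1.43 under prednisolone and -0.18 under vehicle, beside 0.04 and -0.15 over all clusters. Of all clusters 17.5% were called under prednisolone (7.51% lower) and 14.7% under vehicle. For prednisolone in control cells 1.52% were called. Under prednisolone 2 were lower on the arrays labelled BTG1 shRNA, EZR (ezrin) by -1.80 (SE 0.24, limma adjusted p = 0.00173) and RDX (radixin) by -1.43 (SE 0.29, adjusted p = 0.0125, lost when prednisolone array 1 of the BTG1 shRNA label or control prednisolone array 2 was omitted, adjusted p = 0.0847 and 0.0903). Under vehicle 0 passed in limma, and 1 (MSN, moesin, at 0.67) had an unadjusted p below 0.05. In control cells EZR rose with prednisolone by 1.44 (SE 0.24, adjusted p = 0.0347), a call lost in 7 of 8 fits with 1 array left out (highest adjusted p = 0.305).

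Of 19 measured other leukocyte adhesion molecules 4 were higher and 4 lower on the arrays labelled BTG1 shRNA under prednisolone (median 0.04, as over all clusters, of which 10.0% were higher and 7.51% lower), and 3 and 2 under vehicle (median -0.34, beside -0.15, with 8.46% higher and 6.21% lower). The tetraspanins CD9 and CD82, which associate with integrins, lay on opposite sides. CD9 was lower by -6.82 (SE 0.18) under prednisolone and -6.58 (SE 0.18) under vehicle, and CD82 higher by 3.68 (SE 0.22) and 3.29 (SE 0.22). CD6, a receptor for ALCAM on T cells, was higher by 2.90 (SE 0.31) and 2.56 (SE 0.31). Without the second control vehicle array 5 of the 19 were lower under vehicle. In control cells 0 of the 19 passed with prednisolone in limma, and the smallest unadjusted p, 0.00317, was that of CD58, the ligand of CD2, at 1.64 (adjusted p = 0.107).

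**Figure D4:**
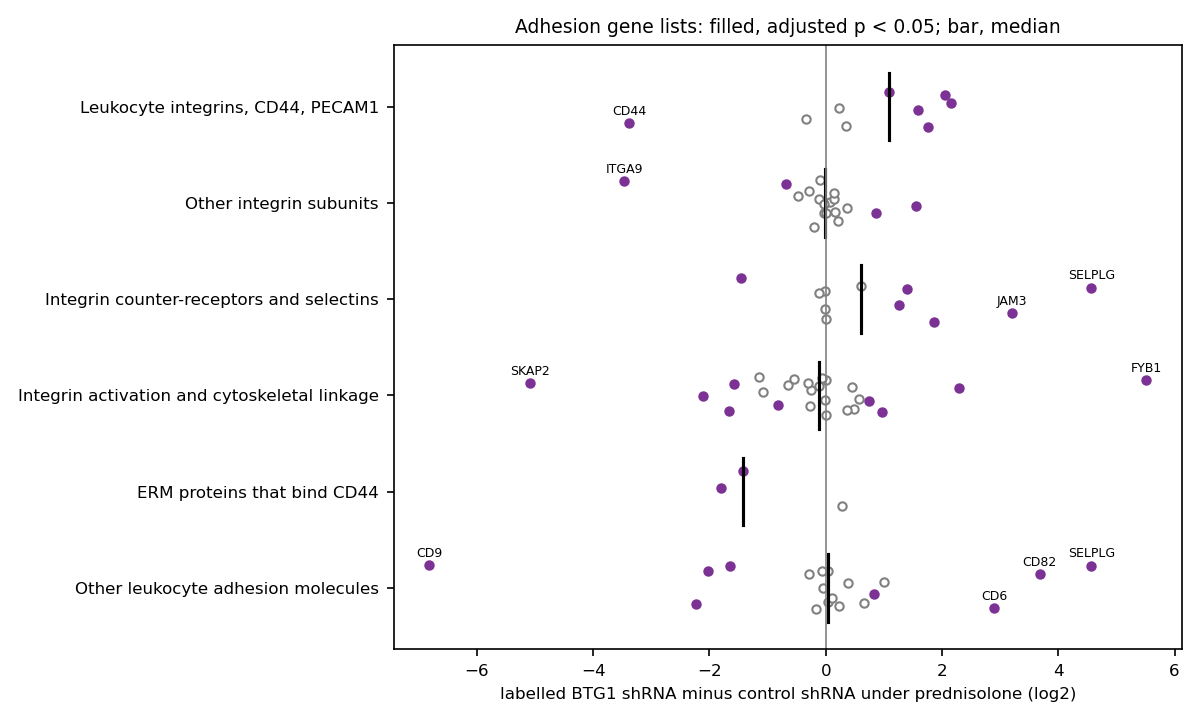
Difference between arrays labelled BTG1 shRNA and control shRNA arrays under prednisolone (horizontal axis, log2) for the 9 genes and for 5 lists of adhesion genes down the page. Each point is a gene (vertical scatter within a list only separates points), filled where the limma adjusted p is below 0.05, bars are medians, and called genes beyond 2.5 are named; SELPLG is in 2 lists, and CD9 and SKAP2 lie furthest below 0.

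For the genes at the ends of the shift, the clusters with the most similar pattern over the 8 arrays were sought among those with 1 symbol. CD44 (mean shift of -3.55 over both treatments) was followed most closely by NCF4, PAX5 and LAMP5, with Pearson correlations of 0.9995, 0.9988 and 0.9987, and 429 clusters exceeded 0.95. PECAM1 (mean shift 1.82) was followed by NT5C3B, TUBG1 and ETV6, with 0.9943, 0.9911 and 0.9894, and 178 clusters exceeded 0.95. The correlations describe 8 arrays that fall into separate lineage profiles and carry no test.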

How the data were processed

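Each deposited value is a log2 expression level of 1 transcript cluster, which the authors summarised from Affymetrix exon arrays over core meta-probe sets (hg18), per the labels. The submitters' processing notes name RMA and Partek, with versions not given in the sources used here. Most decimal points of the deposited log2 values were lost: 153 of 143048 values kept one (2.47 to 12.25). Decimals were restored behind digit 1, or behind digit 2 for the 2831 values with a leading 1, which raised the correlations between arrays from 0.446 to 0.587 as deposited to between 0.872 and 0.995. The unit thus differed from the plain log2 table assumed in the design. No filter or further normalization was applied, and 0 sample columns were left out.

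Group means of the 4 groups were estimated over all 8 arrays and 17881 clusters by limma 3.58.1 (R 4.3.3), with 4 residual and 3.51 prior degrees of freedom, and p was adjusted across clusters per contrast (Benjamini-Hochberg, threshold 0.05); the procedure was tested on simulated data. Percentiles are those of a value within its array, which has no detection call. The small number of arrays limits the precision. The 9 members and the lists of adhesion genes and lineage markers were chosen with earlier results of these data known. Each list uses the row with the highest mean per gene, and some lists share genes. All 9 members are named, and from each list up to 4 genes with the smallest p in the contrast described. MSN and CD58 fall under that rule without being called. BTG1 serves as the label check, and CD3D and PAX5 were chosen after their values were seen. The patterns most like CD44 and PECAM1 were the 3 clusters with 1 symbol and the highest Pearson correlation. Alternatives were quantile normalization, array centring, leaving out dim clusters, the replicate number as a block, an intensity trend, only the arrays compared, another row per gene, and leaving out each array. For the lists they were added after seeing the data.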

Additional observations from a re-analysis of the deposited data

How the results depend on the processing

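Of the 13 calls for the 9 genes between the arrays labelled BTG1 shRNA and the control arrays, 3 of 7 under vehicle and 6 of 6 under prednisolone held without any 1 of the 8 arrays. The number called under vehicle ran from 4 to 8 with 1 array left out, and under prednisolone it stayed at 6. Leaving out dim clusters removed CD44, ITGA6 and ITGB7 from the test and left 5 calls under vehicle and 4 under prednisolone; it also removed ITGA9, ITGA3, ITGB3 and ITGB5, with 0 calls left among the other integrin subunits. The number called with prednisolone in control cells ran from 0 to 1 and the number over 2-fold from 0 to 3 (3 without the first control prednisolone array, 1 without either control vehicle array). Quantile normalization gave 1 call and 1 over 2-fold there, and the replicate block 2 calls (ITGA5, adjusted p = 0.0498, and ITGAL, 0.0254). With 1 array left out, the clusters called ran from 40 to 770 for prednisolone in control cells, from 1289 to 5958 and from 1746 to 3891 between the shRNAs under vehicle and prednisolone, and from 0 to 24 for the difference of effects. For that difference array centring gave 14 clusters. With only the arrays compared, prednisolone in control cells gave 16. With the replicate block the counts were 755 for prednisolone in control cells, 4553 between the shRNAs under vehicle and 96 for the difference of effects, and ITGB1 passed under vehicle (adjusted p = 0.0313). Same-numbered arrays of different groups deviated together with correlations of 0.263 to 0.593, except between vehicle arrays labelled BTG1 shRNA and control prednisolone arrays (0.007). Between control prednisolone and control vehicle arrays the correlation was 0.561. Given that exception, and as the labels name no shared culture or day, the numbers were not taken to pair the arrays. Whether they do is not settled. The cause of these changes was not tested.

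Sign changes other than those of second rows were seen in differences that were not called. After quantile normalization ITGA6 was at 0.113 for prednisolone in control cells and -0.055 for the difference of effects, and ITGB2 at 0.076 for prednisolone on the arrays labelled BTG1 shRNA. After centring ITGA6 was at 0.075 in control cells, and ITGA4 at -0.163 for the difference of effects. With 1 array left out, ITGA4 ran from -0.68 to 0.001, ITGA6 from -0.107 to 0.004 and ITGB1 from -0.009 to 0.684 for prednisolone in control cells. On the arrays labelled BTG1 shRNA, ITGA5 ran from -0.118 to 0.244, ITGB1 from -0.391 to 0.001, ITGB2 from -0.219 to 0.195, ITGB7 from -0.27 to 0.17 and CD44 from -0.12 to 0.045. For the difference of effects ITGA4 ran from -0.331 to 0.351. The second rows of ITGA4 and ITGB1, dim and shared with CERKL and ADGRE3, also turned the sign of the called ITGA4 difference under vehicle: ITGA4 was at 0.14 with prednisolone on the arrays labelled BTG1 shRNA and -0.07 between the shRNAs under vehicle. ITGB1 was at -0.352 and 0.099 with prednisolone in control cells and on the arrays labelled BTG1 shRNA, -0.421 between the shRNAs under vehicle and 0.45 for the difference of effects.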
